A study of Mus musculus with 9 samples.

Results

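The receptors of hormones that act on bone were followed in capillaries of the ossification front (OF), the zone of new bone below the growth plate. They were 9 genes chosen by name from the 39179 genes of the count tables: Vdr (vitamin D receptor), Esr1 (oestrogen receptor alpha), Nr3c1 (glucocorticoid receptor), Ghr (growth hormone receptor), Thra and Thrb (thyroid hormone receptors), Rara and Rarg (retinoic acid receptors) and Rxra (retinoid X receptor alpha). Single capillaries with the cells around them had been cut by laser microdissection (LMD) from unfixed, snap-frozen femurs. The mice were Tg(TIE2GFP)287Sato/J reporters, with C57BL/6 given as their origin, in which a Tie2-driven GFP marks endothelial cells. They were juvenile (4-week-old, n = 5) or adult (12-week-old, n = 4), with 1 library per mouse and no other treatment or allele in the labels. The comparison of juvenile with adult mice asks which of these genes change as the bone stops growing actively.

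Vitamin D, thyroid hormone, retinoic acid, oestrogen and glucocorticoid enter cells and act through nuclear receptors, which are transcription factors switched by their ligand. VDR, the thyroid hormone receptors and the retinoic acid receptors bind DNA together with a retinoid X receptor, commonly at repeats of a short core element, whereas the oestrogen and glucocorticoid receptors mostly bind as pairs of the same protein at palindromes. The growth hormone receptor is a cell surface receptor that signals through the kinase JAK2 and the STAT5 factors. In bone these hormones act on osteoblasts, osteoclasts, growth plate cartilage and marrow stroma.

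On GRCm38 the receptor genes were annotated as protein coding. Vdr (ENSMUSG00000022479) was at chr15:97854425-97910630, Rarg (ENSMUSG00000001288) at chr15:102234938-102257517 and Ghr (ENSMUSG00000055737) at chr15:3317760-3583492, all on the minus strand. Thra (ENSMUSG00000058756) was at chr11:98740638-98769006 and Rara (ENSMUSG00000037992) at chr11:98927818-98974942, both on the plus strand. Esr1 (ENSMUSG00000019768) was at chr10:4611593-5005614, Thrb (ENSMUSG00000021779) at chr14:17660261-18038090 and Rxra (ENSMUSG00000015846) at chr2:27676440-27762957, all on the plus strand.

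Promoter windows of RefSeq on GRCm38.p6 ran from 250 bases before to 50 bases after a start. They were searched on both strands for letters that some of these receptors are known to recognise. The palindrome of the oestrogen receptor was not searched. The core element AGGTCA was in 16.3% of all 32851 windows and in 4 of the 15 windows of the receptor genes, 1 each for Rxra, Rara, Thrb and Rarg. Windows of 7 of the 9 receptors were matched by symbol, without Thra and Nr3c1. Repeats in the same direction of the core AGGTCA, of the variant AGTTCA, of the variant GGTTCA or of the variant GGGTCA, in any combination, were searched with 1 to 5 bases between them. No receptor window held one, and the repeat spaced by 5 bases, the classic element of retinoic acid receptors, was in 0.0974% of all windows, among them those of Rarb and Cyp26a1. The palindrome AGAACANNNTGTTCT, the classic element of the glucocorticoid receptor, was in 3 windows (0.00913%), 1 of them that of Sgk1. The stretches below show a match in capitals, on the strand of the gene, for 3 receptor genes and for the 3 target genes whose levels are given with their receptors. For Rxra a further match, TGACCT at -87 to -82 from the start, which is the core on the other strand, is not printed. A match is a run of letters and not a measured binding site.
Rxra, chr2:27709224-27709269, plus strand: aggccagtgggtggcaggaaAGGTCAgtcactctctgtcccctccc
Thrb, chr14:17660756-17660801, plus strand: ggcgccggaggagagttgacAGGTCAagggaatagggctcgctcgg
Rarg, chr15:102257722-102257767, minus strand: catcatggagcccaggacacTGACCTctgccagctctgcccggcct
Rarb, chr14:16575493-16575549, minus strand: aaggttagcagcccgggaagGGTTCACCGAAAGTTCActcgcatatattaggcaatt
Cyp26a1, chr19:37697756-37697807, plus strand: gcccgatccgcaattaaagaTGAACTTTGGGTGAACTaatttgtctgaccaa
Sgk1, chr10:21993681-21993735, plus strand: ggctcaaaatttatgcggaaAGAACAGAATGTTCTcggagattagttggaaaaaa

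The libraries held 4856833 to 8077362 counts, so that 3 counts, taken as the smallest detectable level, corresponded to 0.371 to 0.618 CPM (counts scaled to the library size). Cell type markers were summed as normalised counts (counts scaled to a common library size) over 14 lists. Sums that did not overlap between the ages included those of erythroid markers, at 3000 to 17430 in juvenile and 31230 to 237300 in adult libraries, neutrophil markers, at 114 to 452 and 653 to 27220, and osteoblast markers, at 1072000 to 1335000 and 389700 to 584200. The summed level of 10 endothelial markers was 4221 to 6280 and 5225 to 6193, with all 10 detected and none called. Juvenile replicates 4 and 5 had 524 and 439 counts of the Y-linked gene Ddx3y, while the other 7 libraries had at most 1, so sex and age were partly mixed. In such pieces of tissue, fewer cells of a type and less RNA per cell cannot be told apart. The part of these marker levels in the results below was not tested.

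All 9 receptors were detected in every library of both ages, and none passed the test for a change with age. With edgeR's quasi-likelihood test and Benjamini-Hochberg adjustment over 13418 tested genes, 520 genes (3.88%) were called at an adjusted p under 0.05, and 0 of the 9 receptors. At an unadjusted p under 0.05 the shares were 17.3% of all genes and 0 of 9 receptors. DESeq2 called 9.47% of its genes and 0 of 9 receptors, and its unadjusted p was under 0.05 for Ghr alone. limma voom called 0 of 9, with 0 at an unadjusted p under 0.05. The normalised counts of the ages did not overlap for 9.15% of all tested genes and for 0 of 9 receptors. The log2 fold change, juvenile over adult, was below 0 for 6 receptors and above 0 for 3, with a median of -0.33 against -0.01 for all tested genes. The 95% intervals of the single genes ran as low as -2.35 and as high as 1.58, so the data bound the change of some receptors far more tightly than that of others.

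**Figure D1:**
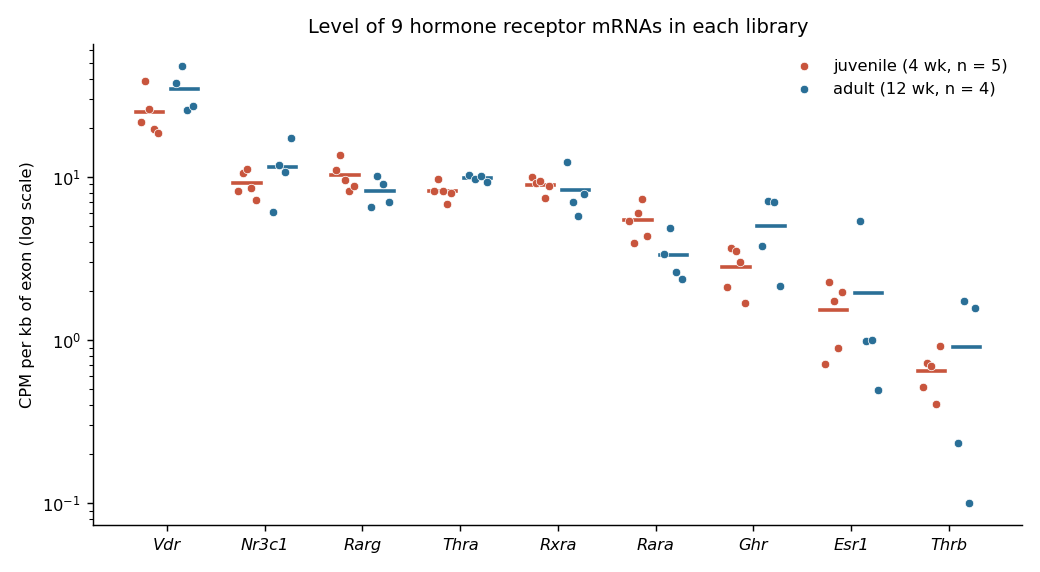
Level of each receptor mRNA in each library, as CPM per kb of exon on a log axis, with juvenile libraries in red (n = 5), adult libraries in blue (n = 4) and bars at the means of each age. Vdr lies above all other receptors in every library, the points of both ages overlap for each gene, and the adult points of Esr1 and Thrb are spread the widest.

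On the per-length scale, with counts divided by library size and exon length, Vdr was the highest receptor at a mean of 29.3 CPM per kb over the 9 libraries (18.7 to 48.0). Its lowest library was above the highest library of every other receptor. Nr3c1 (mean 10.2 CPM per kb), Rarg (9.34), Thra (8.95) and Rxra (8.67) followed at levels that could not be put in order. Nr3c1 was above Rarg in 5 of 9 libraries, Rarg above Thra in 6 and Thra above Rxra in 4. Rara was lower, at 4.48 CPM per kb, and was below Rxra in 9 of 9 libraries although their ranges overlapped. Ghr (3.79 CPM per kb), Esr1 (1.72) and Thrb (0.766) came last, each above the next in 7 of 9 libraries. Rara was above Ghr in 6 of 9.

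**Figure D2:**
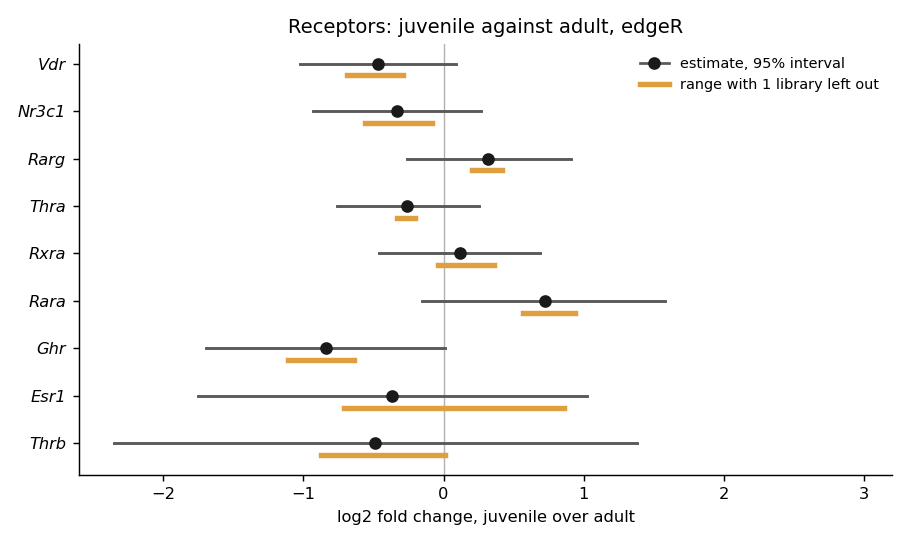
Log2 fold change of each receptor, juvenile over adult, from edgeR (points) with its 95% interval (grey lines) and the range of estimates when 1 library at a time was left out (orange). All 9 intervals include 0, Thra and Vdr have narrow intervals, and the orange ranges of Rxra, Esr1 and Thrb reach both sides of 0.

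Vdr, which mediates the action of active vitamin D on mineral balance and on osteoblasts, had normalised counts of 771, 1381, 924, 701 and 664 in the 5 juvenile libraries and 1344, 1703, 911 and 962 in the 4 adult libraries. Juvenile replicate 2 was above 3 of the 4 adult libraries, and the other juvenile libraries were below or close to the lowest adult ones. The juvenile mean was 888 ± 293 (SD, n = 5), against an adult mean of 1230 ± 370 (SD, n = 4). Juvenile over adult, the log2 fold change was -0.47 (SE 0.26, 95% interval -1.02 to 0.09, edgeR adjusted p = 0.386). It fell short of the threshold in each of the 9 fits that left out 1 library, where it ranged from -0.69 to -0.29. A level up to 1.06-fold higher or down to 0.492-fold in juvenile mice lies inside the interval.

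Of 18 genes for the handling and targets of vitamin D, 10 were tested, 1 was called in each direction, and their median log2 fold change was -0.07. Cyp24a1, which breaks down active vitamin D and is its most responsive target in many tissues, had 0 counts in all 9 libraries. Cyp27b1, which makes active vitamin D, had 26 counts in juvenile replicate 4 and 0 in every other library. Cdkn1a, a cell cycle inhibitor, was higher in juvenile mice, at 2384 ± 578 (SD, n = 5) against 1314 ± 260 (SD, n = 4) normalised counts and a log2 fold change of 0.86 (SE 0.21, edgeR adjusted p = 0.0398). That call held in 1 of 9 fits with 1 library left out, the fit without adult replicate 2 (edgeR adjusted p = 0.0355), and the other fits reached up to 0.101. Bglap, which encodes the bone matrix protein osteocalcin, was lower in juvenile mice, with 5396 to 15200 normalised counts against 15780 to 59320 and a log2 fold change of -2.04 (SE 0.40, edgeR adjusted p = 0.0151). It is also one of the osteoblast markers, whose sum moved the other way. The gene has near-identical neighbouring copies between which reads may be split, so its value is uncertain. Spp1, encoding osteopontin, was at 22490 ± 5288 (SD, n = 5) and 19950 ± 10050 (SD, n = 4) and was not called.

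Nr3c1 (ENSMUSG00000024431, chr18:39410545-39519421, minus strand) encodes the receptor that binds corticosterone in mice and is known for restraining bone formation when glucocorticoid is in excess. Its normalised counts were 395, 508, 541, 413.5 and 349.9 in juvenile and 293, 571, 519.5 and 838 in adult libraries. Adult replicates held both the lowest and the highest value, and the juvenile libraries lay between them. Mean values of 441.5 ± 80.1 (SD, n = 5) against 555.5 ± 223.9 (SD, n = 4) gave a log2 fold change of -0.33 (SE 0.28, 95% interval -0.93 to 0.27, edgeR adjusted p = 0.629). Without adult replicate 4 the estimate was -0.08, the nearest to 0 of the 9 fits with 1 library left out.

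The list of glucocorticoid handling and targets had the most calls. Of 24 genes, 17 were tested, and 4 of them were called higher in adult and 1 in juvenile mice. That was 29.4% of those tested, against 3.88% of all tested genes, and the median log2 fold change was -0.30. DESeq2, which called 9.47% of all its genes, called 8 genes of the list. The fits with 1 library left out called 2 to 6 (6 without adult replicate 2). Some of these were genes that the filter on low counts had kept out of the edgeR fit on all 9 libraries. The 7 libraries without juvenile replicates 4 and 5 called 2, Mt1 and Tsc22d3. In adult mice erythroid, neutrophil and macrophage markers were higher as well, with the sums of the first 2 given above and 3059 to 5205 against 6953 to 11760 for macrophage markers. Their part in these calls was not tested.

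Mt1, a metallothionein induced by glucocorticoid and by metals, was at 1471, 1162, 1851, 1310 and 969 in juvenile and 3891, 3428, 3465 and 3355 in adult libraries. Every adult library was above every juvenile one, by a log2 fold change of -1.39 (SE 0.19, edgeR adjusted p = 0.00233), or 2.61-fold. Tsc22d3, encoding the glucocorticoid-induced leucine zipper GILZ, was at 319.7, 331, 427, 598.5 and 407 in juvenile and 1288, 662, 1218 and 1207 in adult libraries. It too did not overlap, with adult replicate 2 close to the highest juvenile library and a log2 fold change of -1.39 (SE 0.25, edgeR adjusted p = 0.00965), or 2.63-fold. Both calls held in 9 of 9 fits with 1 library left out.

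Mt2, the neighbouring metallothionein, was at 146 ± 76.8 (SD, n = 5) against 533 ± 130 (SD, n = 4) and had a log2 fold change of -1.87 (SE 0.38, edgeR adjusted p = 0.0170). An antisense gene overlaps 73.5% of its exon bases, and a library that does not mark strand cannot separate the pair. The call of Mt2 was lost without juvenile replicate 4 (edgeR adjusted p = 0.0513). Nfkbia, the NF-kappaB inhibitor, was at 1012 ± 259 (SD, n = 5) against 2111 ± 490 (SD, n = 4), with a log2 fold change of -1.06 (SE 0.22, edgeR adjusted p = 0.0185), and lost its call without juvenile replicate 4 (0.0542) or 5 (0.0546). Pdk4, a kinase that holds back the oxidation of glucose, went the other way, at 468 ± 84.7 (SD, n = 5) against 190.4 ± 82.8 (SD, n = 4) and a log2 fold change of 1.30 (SE 0.32, edgeR adjusted p = 0.0392). Its call held in 2 of 9 fits with 1 library left out, those without adult replicate 3 or 4, and the adjusted p of the 9 fits ran from 0.0365 to 0.107.

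Sgk1, the kinase whose promoter window holds the palindrome printed above, was at 455, 460.2, 590.4, 364 and 572 in juvenile and 791, 743, 1013 and 619 in adult libraries. The ages did not overlap, but the log2 fold change of -0.70 (SE 0.21, edgeR adjusted p = 0.0902) missed the threshold. Other known targets were not called: Fkbp5, a chaperone partner that limits the receptor, had a log2 fold change of -0.75 (SE 0.54), Per1, a clock gene, of -0.14 (SE 0.51), and Dusp1, a kinase phosphatase, of 0.08 (SE 0.33). Hsd11b1, which regenerates active glucocorticoid within cells, had 0 to 66 counts and was not tested. Its normalised counts were 0, 0, 0, 0 and 1.33 in juvenile and 47.9, 0, 19.4 and 40.9 in adult libraries.

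Esr1, through which oestrogen slows bone loss, had normalised counts of 61.4, 195, 148, 76.6 and 170.3 in juvenile libraries. The adult libraries had 458, 84.9, 86.2 and 42.5. Adult replicate 1 stood apart from the other 3 adult libraries, of which 2 were within the juvenile range and 1 was below it. The log2 fold change was -0.37 (SE 0.64, 95% interval -1.75 to 1.02, edgeR adjusted p = 0.853), and it turned to 0.86 without adult replicate 1 and to 0.41 under limma voom with sample quality weights. No direction can be given for Esr1 from these libraries.

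Of 19 genes for the handling and targets of oestrogen and androgen, 18 were in the tables, 12 were tested, 1 was called, higher in adult mice, and the median log2 fold change was -0.39. This 1 call was 8.3% of those tested, against 3.88% of all tested genes. The called gene was Igfbp4, which encodes a protein that binds insulin-like growth factors, at 1868 ± 277 (SD, n = 5) against 3393 ± 902 (SD, n = 4) and a log2 fold change of -0.86 (SE 0.19, edgeR adjusted p = 0.0267). The call was lost without juvenile replicate 1, 4 or 5 or adult replicate 1 (edgeR adjusted p up to 0.0754). Xbp1, a secretory stress factor also induced by oestrogen, was at 2043 ± 315 (SD, n = 5) and 1275 ± 269 (SD, n = 4) with no overlap and an edgeR adjusted p of 0.0612. That p ran from 0.0139 to 0.0943 over other scalings, filters and tools and from 0.0297 to 0.14 with 1 library left out, and it passed 0.05 under DESeq2, limma voom and the 10-count filter and without adult replicate 1. Cyp19a1, which makes oestrogen, had 0 to 1 counts, and the target Pgr had 0 in all libraries.

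Ghr had the lowest p of the 9 receptors. It had normalised counts of 119.5, 209, 199, 172 and 95.8 in juvenile libraries and 214, 406, 399 and 122 in adult libraries. Adult replicates 2 and 3 were well above the juvenile range, adult replicate 1 was just above it, and adult replicate 4 lay within it. Juvenile libraries averaged 159 ± 49.5 (SD, n = 5) and adult ones 285 ± 140.5 (SD, n = 4). That gave a log2 fold change of -0.84 (SE 0.39, 95% interval -1.69 to 0.01, edgeR adjusted p = 0.296). Its unadjusted DESeq2 p was 0.0373, with an adjusted DESeq2 p of 0.199. The smallest adjusted p of any receptor in 18 alternative fits, 0.120, was that of Ghr without adult replicate 4 in edgeR.

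Of the 21 genes of growth hormone signalling, 20 were tested and 0 were called by edgeR, against 3.88% of all tested genes. An unadjusted edgeR p under 0.05 was reached by 3 of the 20, against 17.3% of all tested genes. DESeq2, which called 9.47% of all its genes, called 1 gene of the list. The median log2 fold change of the list was -0.03. Jak2, the kinase bound to the receptor, was at 339 ± 139 (SD, n = 5) against 145 ± 93.5 (SD, n = 4), and its log2 fold change of 1.22 (SE 0.46, edgeR adjusted p = 0.179) was opposite in sign to that of Ghr. Socs1, an inhibitor of such kinases, was at 156 to 272 in juvenile and 37.0 to 149 in adult libraries, which did not overlap, and had an edgeR adjusted p of 0.219. Stat5a and Stat5b, the factors that carry the signal, had log2 fold changes of -0.95 (SE 0.48) and -0.29 (SE 0.40). Ptpn6, a phosphatase that dampens such signalling, was the gene called by DESeq2. It had normalised counts of 253, 100.4, 40.1, 66.0 and 66.5 in juvenile and 308, 299.8, 443 and 244 in adult libraries. Juvenile replicate 1 was the juvenile library that reached the adult range, and the log2 fold change was -1.62 (SE 0.48, edgeR adjusted p = 0.0822). The adjusted p ran from 0.0165 to 0.0835 over other scalings, filters and tools, with calls under DESeq2, limma voom and the 10-count filter, and from 0.0115 to 0.186 with 1 library left out, with a call without juvenile replicate 1. Socs2, a growth hormone target that limits growth, had one of -0.21 (SE 0.26). Igf1, the main effector of growth hormone, was at 58.5 to 113 in juvenile libraries and at 217, 0, 20.2 and 99.9 in adult libraries. Adult mice thus held the lowest and the highest Igf1 value. Ptpn1, a phosphatase that acts on this pathway, had the highest level of the list per length and a log2 fold change of 0.01 (SE 0.20).

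Thra, the thyroid hormone receptor that predominates in the skeleton, was the steadiest of the 9. It had normalised counts of 239, 283, 239, 199 and 231.5 in juvenile and 296, 279.9, 295 and 269.7 in adult libraries. Of the juvenile libraries replicate 2 alone reached the adult range. Averages of 238 ± 29.9 (SD, n = 5) against 285 ± 12.7 (SD, n = 4) gave a log2 fold change of -0.26 (SE 0.23, 95% interval -0.76 to 0.25, edgeR adjusted p = 0.659) and a range of -0.33 to -0.20 with 1 library left out. Exons of Thra overlap those of Nr1d1 on the opposite strand over 263 bases (5.7% of the exon bases of Thra), and these libraries do not mark strand. Nr1d1, a clock factor, was at 103 ± 36.03 (SD, n = 5) and 99.8 ± 50.7 (SD, n = 4).

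Thrb, which serves mainly in liver and in the feedback of the pituitary, had the lowest level, with 6 to 93 counts per library before scaling. Its normalised counts were 23.9, 33.45, 32.1, 18.85 and 42.6 in juvenile and 10.9, 80.7, 4.66 and 73.1 in adult libraries. The 4 adult libraries lay outside the juvenile range, 2 below it and 2 above it. The log2 fold change of -0.49 (SE 0.86, 95% interval -2.35 to 1.38, edgeR adjusted p = 0.856) moved to 0.01 without adult replicate 2, and the SD of log2 CPM was 0.43 in juvenile and 1.83 in adult libraries.

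Within single libraries Thra exceeded Thrb per length in 9 of 9. The log2 ratio of Thra to Thrb was 3.97, 3.75, 3.56, 4.04 and 3.11 in juvenile and 5.40, 2.47, 6.55 and 2.56 in adult libraries. The juvenile mean was 3.68 ± 0.38 (SD, n = 5) against 4.25 ± 2.05 (SD, n = 4) in adults, and the difference of -0.56 was smaller than the spread of the adult libraries (two-sided exact permutation test, p = 0.524; adjusted over 3 ratios 0.651). With 5 libraries against 4 that test cannot give a p below 0.0159.

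Of 17 genes for the handling and targets of thyroid hormone, 9 were tested, 1 was called, higher in adult mice, and the median log2 fold change was -0.66. This 1 call was 11.1% of those tested, against 3.88% of all tested genes. Dio2, which converts the prohormone to active thyroid hormone, had 0 to 14 counts, and Dio1 and Dio3, the other deiodinases, had 0 in all libraries. The called gene was Thrsp, a lipogenic target. It had normalised counts of 0, 0.904, 0, 9.43 and 0 in juvenile and 113, 53.5, 36.5 and 86.5 in adult libraries. Its log2 fold change of -5.04 (SE 1.24, edgeR adjusted p = 0.0411) depends on the prior count, since 3 juvenile libraries had none. The gene passed the filter on low counts through the adult libraries, where it is high, so the call is not independent of the filter. The call held in 2 of 9 fits with 1 library left out, those without juvenile replicate 4 or adult replicate 2, with an edgeR adjusted p of up to 0.0953 in the others. Klf9, a direct target of both thyroid hormone and glucocorticoid, was at 242 ± 162 (SD, n = 5) and 218 ± 58.8 (SD, n = 4). Dbp, with the highest level of the list per length, was at 171 ± 115 (SD, n = 5) and 269 ± 181 (SD, n = 4). Its log2 fold change was -0.66 (SE 0.59, edgeR adjusted p = 0.655).

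**Figure D3:**
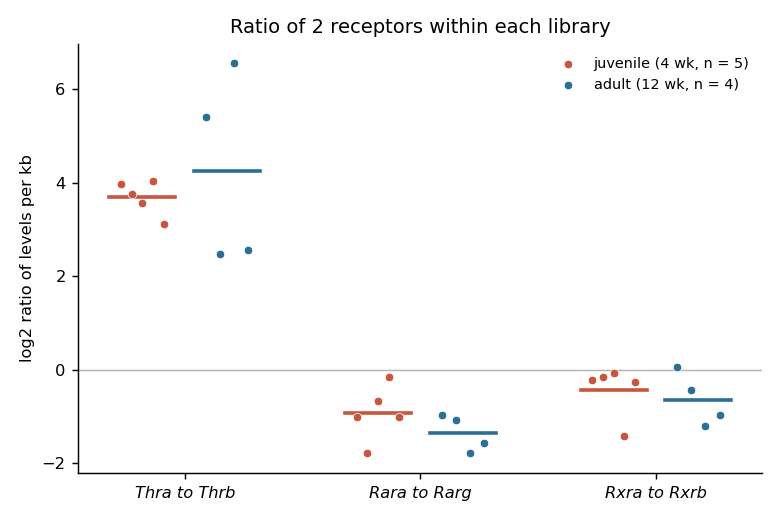
Log2 ratio of the levels per kb of a pair of receptors within each library, in juvenile (red, n = 5) and adult mice (blue, n = 4), with bars at the means. Thra is above Thrb in every library, Rara below Rarg in every library, and the ages overlap for each ratio.

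Rara had the highest positive estimate of the 9 receptors. The normalised counts of this retinoic acid receptor were 148, 108.5, 166, 201.5 and 119.7 in juvenile and 92.1, 133, 71.4 and 65.3 in adult libraries. Adult replicate 2 was above juvenile replicates 2 and 5, and the other 3 adult libraries were below all juvenile ones. Averages were 149 ± 37.2 (SD, n = 5) against 90.5 ± 30.7 (SD, n = 4). The log2 fold change was 0.72 (SE 0.40, 95% interval -0.15 to 1.58, edgeR adjusted p = 0.396) and stayed between 0.57 and 0.94 with 1 library left out. A 2.99-fold higher level in juvenile mice was the upper bound of its interval.

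Rarg, the retinoic acid receptor of cartilage and skin, had normalised counts of 294, 364, 256.5, 220.3 and 235.5 in juvenile and 175, 272.5, 241.5 and 189 in adult libraries. The upper adult libraries lay among the juvenile ones. Its log2 fold change was 0.32 (SE 0.27, 95% interval -0.26 to 0.91, edgeR adjusted p = 0.629). Rara was below Rarg per length in 9 of 9 libraries. The log2 ratio of Rara to Rarg averaged -0.93 ± 0.59 (SD, n = 5) in the younger and -1.34 ± 0.40 (SD, n = 4) in the older mice, a difference of 0.42 (two-sided exact permutation test, p = 0.270; adjusted over 3 ratios 0.651). The third family gene, Rarb, itself a target of retinoic acid through the repeat printed above, had 0 to 33 counts, with none in adult replicates 2 and 3.

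Rxra, the common partner of VDR and of the thyroid and retinoic acid receptors, had normalised counts of 341, 315.5, 325, 254.5 and 303 in juvenile and 425, 242, 198 and 270.5 in adult libraries. The adult libraries reached beyond the juvenile ones on both sides. Averages were 308 ± 32.9 (SD, n = 5) against 284 ± 98.7 (SD, n = 4). Its log2 fold change was 0.12 (SE 0.27, 95% interval -0.46 to 0.69, edgeR adjusted p = 0.895), and -0.04 without adult replicate 3. Its paralog Rxrb was at 310.2 ± 104 (SD, n = 5) and 313 ± 61.3 (SD, n = 4), and stood above Rxra per length in 8 of 9 libraries. The log2 ratio of Rxra to Rxrb averaged -0.42 ± 0.56 (SD, n = 5) against -0.64 ± 0.56 (SD, n = 4), a difference of 0.21 (two-sided exact permutation test, p = 0.651; adjusted over 3 ratios 0.651). Rxrg, the third paralog, had 0 to 24 counts.

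Around these receptors, genes of retinoid handling moved in both directions. Of 30 genes, 20 were tested, 1 was called higher in adult and 2 in juvenile mice, and the median log2 fold change was 0.05. The share called was 15.0% of those tested, against 3.88% of all tested genes. Aldh1a3, which makes retinoic acid, had normalised counts of 440.3, 684, 393, 311 and 206 in juvenile and 18.1, 128, 13.98 and 29.1 in adult libraries. Every juvenile library was above every adult one, by a log2 fold change of 3.12 (SE 0.65, edgeR adjusted p = 0.0187), or 8.72-fold. The call was lost without adult replicate 4 (edgeR adjusted p = 0.0538) and under limma voom with sample quality weights (adjusted p = 0.0529). The other enzymes of that step were Aldh1a2, at 71.1 ± 53.8 (SD, n = 5) and 65.4 ± 54.3 (SD, n = 4), and Aldh1a1, at 4.21 ± 8.78 (SD, n = 5) and 75.8 ± 103 (SD, n = 4), and neither was called.

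Fabp5, a fatty acid carrier that can also hold retinoic acid, was higher in juvenile mice, at 1145 ± 705.5 (SD, n = 5) against 334 ± 157 (SD, n = 4) and a log2 fold change of 1.78 (SE 0.43, edgeR adjusted p = 0.0368). Dhrs3, which turns retinal back into retinol, was lower in juvenile mice, at 164 ± 74.9 (SD, n = 5) against 477 ± 160 (SD, n = 4) and a log2 fold change of -1.54 (SE 0.35, edgeR adjusted p = 0.0281). The ages overlapped for both. Fabp5 kept its call in 2 of 9 fits with 1 library left out, those without juvenile replicate 5 or adult replicate 2 (edgeR adjusted p up to 0.0963 in the others). Dhrs3 kept it in 3, those without juvenile replicate 1 or adult replicate 2 or 3 (up to 0.0803 in the others). Rbp4, the retinol carrier with the highest level of the list per length, was at 501.5 ± 164 (SD, n = 5) and 219 ± 83.7 (SD, n = 4) with no overlap and an edgeR adjusted p of 0.0678. Cyp26a1, the retinoic acid-degrading target whose repeat is printed above, had 0 counts in all 9 libraries.

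**Figure D4:**
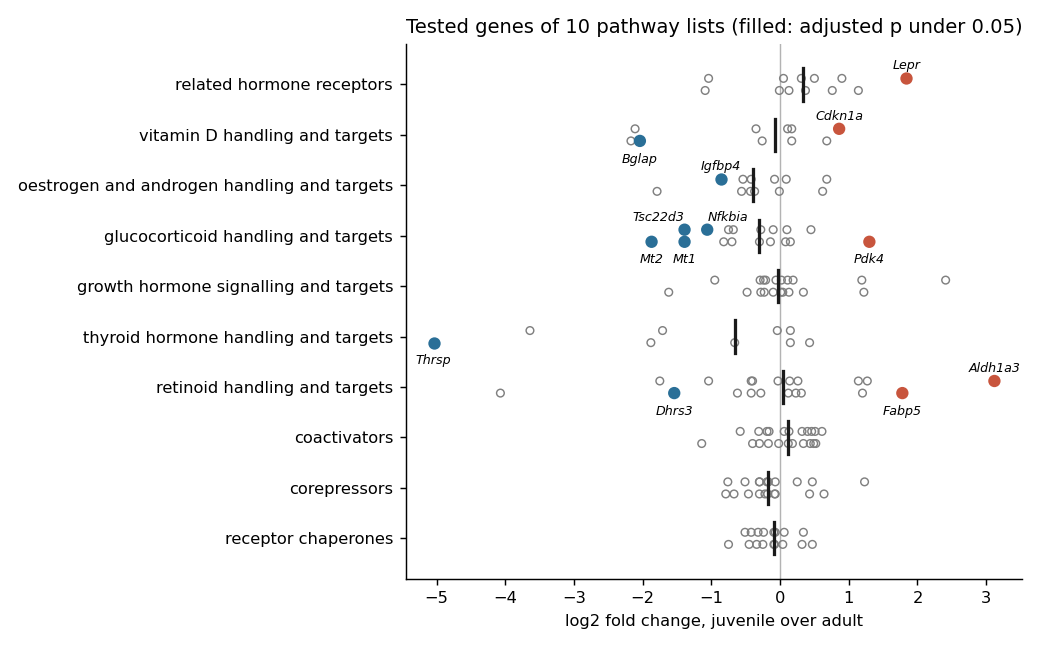
Log2 fold change, juvenile over adult, of each tested gene of 10 lists of genes that work with these receptors, with black bars at the list medians. Filled points passed the edgeR threshold (5 higher in juvenile mice in red, 8 higher in adult mice in blue), and the 3 lists of receptor cofactors at the bottom hold none.

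The mRNAs of proteins that work with nuclear receptors were not called by edgeR. Of 24 coactivators 22 were tested, of 20 corepressors 20 and of 19 chaperones of steroid receptors 17. In each list edgeR called 0, against 3.88% of all tested genes. An unadjusted edgeR p under 0.05 was reached by 1, 2 and 1 genes, against 17.3% of all tested genes. DESeq2, which called 9.47% of all its genes, called 0 coactivators, 0 corepressors and 1 chaperone. The median log2 fold changes of the lists were 0.12, -0.18 and -0.09. The gene with the highest level per length in each was Ddx5, an RNA helicase that serves as coactivator (log2 fold change -0.17, SE 0.13), Gps2, a subunit of the NCoR complex (-0.51, SE 0.27), and Hsp90ab1, the chaperone that holds steroid receptors ready for ligand (0.04, SE 0.15). Med1, the mediator subunit that contacts nuclear receptors, was at 516.5 ± 173 (SD, n = 5) and 363 ± 41.0 (SD, n = 4), and Ncor1, the main corepressor, at 1095 ± 186 (SD, n = 5) and 1246 ± 259 (SD, n = 4).

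Of 22 related hormone receptors 12 were tested and 1 was called (8.3%, against 3.88% of all tested genes). That was Lepr, the leptin receptor and a mark of marrow stromal cells, with normalised counts of 721, 998, 833.5, 759.9 and 1159 in juvenile and 331.5, 236, 142 and 289 in adult libraries. The ages did not overlap, and the log2 fold change was 1.84 (SE 0.27, edgeR adjusted p = 0.00285), or 3.58-fold, with the call kept in 9 of 9 fits with 1 library left out. The summed level of the 8 markers of adipogenic marrow stroma, of which Lepr is one, was 1972 to 3082 in juvenile and 2717 to 7547 in adult libraries, and 1 of the 8 was called higher and 1 lower in juvenile mice. Pth1r, the parathyroid hormone receptor of osteoblasts, had the highest level per length among these receptors, 252 CPM per kb, with 5143 ± 1079 (SD, n = 5) and 3983 ± 898 (SD, n = 4) normalised counts and a log2 fold change of 0.37 (SE 0.19, edgeR adjusted p = 0.355). Esr2, the other oestrogen receptor, had 0 to 3 counts.

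**Figure D5:**
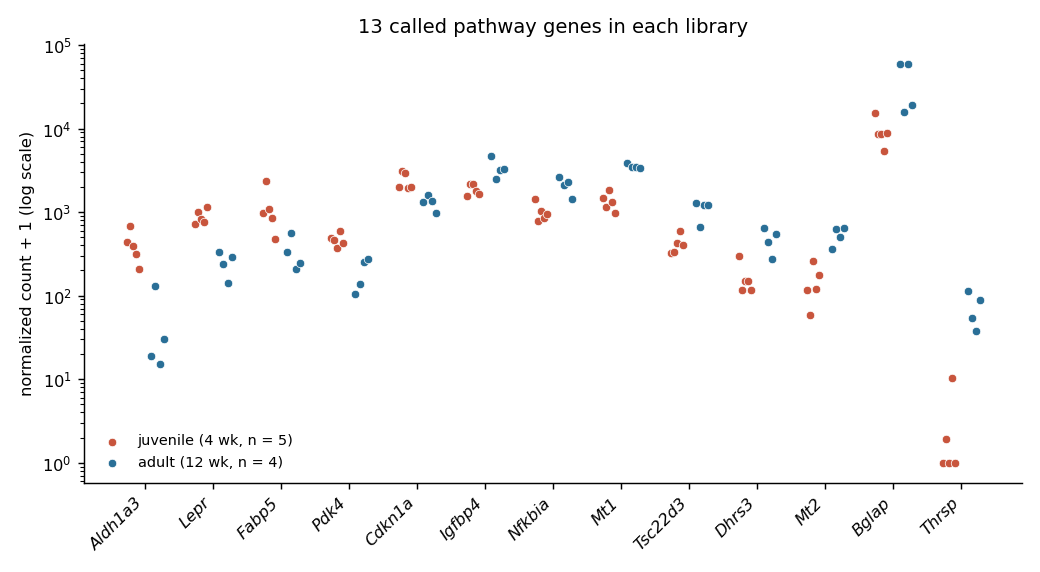
Normalised count plus 1, on a log axis, of the 13 called genes of the receptor pathway lists in each juvenile (red, n = 5) and adult library (blue, n = 4), ordered by log2 fold change. The ages do not overlap except for Fabp5 and Dhrs3, and Thrsp is at or near 0 counts in the juvenile libraries.

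Over the 10 lists together, 154 of 209 genes were tested, and 8 were called higher in adult and 5 in juvenile mice, or 8.44% of the tested genes against 3.88% of all. The 8 include Thrsp, which passed the filter on low counts through the adult libraries. These lists share markers of bone and stromal cells with the marker lists above. In the 7 libraries without juvenile replicates 4 and 5, Lepr (edgeR adjusted p = 0.0423), Mt1 (0.0359) and Tsc22d3 (0.0423) were called, and the other 10 called genes were not.

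The receptors also differed in how much they varied. The SD of log2 CPM was larger among adult than among juvenile libraries for 7 of 9 receptors, against 68.8% of all tested genes. It was 1.83 in adult and 0.43 in juvenile libraries for Thrb, 1.44 and 0.73 for Esr1, and 0.82 and 0.48 for Ghr. Thra and Vdr were the exceptions, at 0.06 against 0.18 and 0.42 against 0.43.

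With 13418 tested genes and only 9 libraries, the highest correlations with any gene can be high by selection alone. No r expected of unrelated genes was computed, so the pairs below are not read as shared regulation. The libraries also share their age groups and depths, so the pairs are a description. For each receptor the 3 tested genes with the most similar log2 CPM over the 9 libraries were looked up. For Vdr they were Kank3 (Pearson r 0.924), Gfm1 (0.923) and Gm11427 (0.915). Nr3c1 was most like Pml (0.955), Fn3krp (0.949) and Sp100 (0.946). For Esr1 the genes were Klf7 (0.968), Bean1 (0.954) and Dpysl3 (0.941), and for Ghr Pebp1 (0.967), 1110004F10Rik (0.933) and Gm26540 (0.928). Thra was followed by Cenpu (0.973), Elovl1 (0.966) and Calr (0.956), and Thrb by Qsox2 (0.963), Gm26733 (0.947) and Ubxn2a (0.940). For Rxra they were Vps26c (0.972), Entr1 (0.946) and Egfl8 (0.941). Rara was most like Panx3 (0.962), Nudt17 (0.959) and Piezo1 (0.955), and Rarg like Rnf113a1 (0.961), Acot12 (0.948) and Mmp14 (0.939). No gene appeared for more than 1 receptor.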

How the data were processed

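Capillaries with their neighbouring cells, cut out by laser, gave RNA for 9 libraries of 9 mice (5 juvenile, 4 adult), in libraries of a poly-A dependent kit that does not mark strand. Per the submitters' processing notes and the study's methods, the authors mapped reads to mm10 (GRCm38) with TopHat2 and Bowtie2 and counted them with featureCounts; versions, annotation release, strand setting and treatment of read pairs are not given in the sources used here. The deposited tables hold whole-number counts per Ensembl gene, without normalisation, for 39179 genes. The study used DESeq2 at default settings.

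Of these genes 37693 were matched to a symbol of the GENCODE annotation of GRCm38, 21512 had a count, and 13418 passed edgeR's filterByExpr. Totals were 4856833 to 8077362 counts. No 2 libraries were identical (0 pairs). Ages were compared with edgeR 4.0.16 (R 4.3.3; TMM scaling, quasi-likelihood F test, Benjamini-Hochberg adjustment over all tested genes, threshold 0.05). Normalised counts were counts divided by the TMM-scaled library size set to a geometric mean of 1 over the libraries, and log2 CPM used a prior count of 2. CPM per kb was CPM divided by the summed exon length of a gene. Ratios of 2 receptors used a pseudocount of 0.5 counts and a two-sided exact permutation test (scipy 1.17.1). Floors and intervals cover counting error or the spread between these libraries only.

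The receptors, gene lists, marker lists and tests were chosen with earlier results of these data known. Named were the 9 receptors, of each pathway list the called genes (at most 6 in each direction) and the gene with the highest level per kb, and for each receptor the 3 most correlated genes. Other genes of the lists named in the text, and the receptors' promoter windows, were chosen after their values were seen. Of 209 listed genes 207 were matched; Sts and Prmt1 were not.

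Alternatives were DESeq2's size factors, upper-quartile scaling, DESeq2 1.42.0, limma 3.58.1 voom with sample quality weights, other filters, a library size without haemoglobin, immunoglobulin and mitochondrial genes (74 genes), the 7 libraries that hold more counts of Xist than of Y-linked genes, the replicate number as a block, and each library left out in turn. The fits were tested on simulated counts. Replicate numbers belong to different mice and were not taken as pairs.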

Additional observations from a re-analysis of the deposited data

Results flagged for a closer look

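In 7 of 64 groups of libraries tested, the named genes or ratios had 1 library far from the others of its age (Dixon's criterion at 95%). For independent, normally distributed values that criterion would flag about 3.2. The values here were mostly unlogged counts of chosen genes from shared libraries, so 3.2 is not a baseline for them. Among the receptors, Esr1 in adult replicate 1 had 457.8 normalised counts, with 42.46 to 86.19 in the remaining 3 libraries of that age. The ratio of Rxra to Rxrb in juvenile replicate 4 was -1.41 on the log2 scale against -0.26 to -0.07 in the other 4 juvenile libraries, a library in which Rxrb was at 494 against 248 to 290.1 in the others.

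Adult replicate 2 stood apart for 3 genes. Aldh1a3 was at 127.9 against 13.98 to 29.09, Pth1r at 5316 against 3384 to 3692, and Tsc22d3 at 662.4 against 1207 to 1288. This library also had the lowest neutrophil marker sum of the adult libraries, 653 against 21850 to 27220, and the highest chondrocyte marker sum, 30130 against 3744 to 6500; the part of either in these values was not tested.

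Dhrs3 was at 294.7 in juvenile replicate 1 against 114.4 to 149.6 in the other juvenile libraries. Thrsp was at 9.43 in juvenile replicate 4 against 0 to 0.904.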

How the results depend on the processing

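No receptor was called in any of 18 alternatives. Of 161 alternative log2 fold changes of the 9 receptors 154 kept their direction and 7 turned it: Esr1 to 0.41 under limma voom, 0.15 with the replicate block and 0.86 without adult replicate 1 (range with 1 library left out -0.71 to 0.86), Thrb to 0.16, 0.09 and, without adult replicate 2, 0.01 (-0.87 to 0.01), and Rxra to -0.04 without adult replicate 3 (-0.04 to 0.36). Of 36 alternative ratios 35 kept their direction, and that of Thra to Thrb turned to 0.21 without adult replicate 3 (range with 1 library left out -1.15 to 0.21). Of 359 alternatives of the 20 other named genes 279 kept direction and call, 65 lost the call, 3 gained one and 12 turned, all of 2 genes near 0: Ptpn1 to -0.01 with DESeq2's size factors, with DESeq2 and with no filter on low counts, -0.02 under limma voom and to as low as -0.11 with 1 library left out (-0.11 to 0.11); and Hsp90ab1 to -0.01 with the replicate block and without juvenile replicate 5, -0.07 in the 7 libraries without juvenile replicates 4 and 5 and -0.05 without adult replicate 1 (-0.05 to 0.10). Thrb could not be tested with at least 10 counts in every library. The counts of genes called higher in juvenile mice and of genes called higher in adult mice, 267 and 253, were 719 and 771 with DESeq2, 42 and 31 in those 7 libraries, 145 to 306 and 117 to 345 with 1 library left out, and 46 and 35 with the replicate block, against 145 and 117 without juvenile replicate 5, the same 8 libraries with no block. With the block the glucocorticoid list had 1 called gene (Mt1) and Tsc22d3 had an edgeR adjusted p of 0.0518. The deviations of same-numbered libraries had correlations of 0.027, -0.032, 0.019 and 0.030. Differently numbered libraries were not compared, so these values cannot settle whether the numbers pair the mice. The causes of these changes were not tested beyond the smaller number of libraries. With 3 counts as the floor, genes below 0.371 to 0.618 CPM could not be detected, and for Thrb and Esr1 the spread of the adult libraries sets the limit.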
